A study of Mus musculus with 6 samples.

Results

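The mouse mitochondrial genome carries 37 genes whose symbols start with mt-, of which 13 encode proteins, 2 ribosomal RNAs and 22 transfer RNAs. Gene identifiers of the deposited tables were matched to mouse symbols, and every symbol with that prefix was taken. Of 32739 genes in the tables, 13 carried the prefix, and all 13 were messenger RNAs. The 24 ribosomal and transfer RNAs are not analysed here, so that the values below describe the messenger class. All 13 messenger RNAs passed the filter on low counts and were among the 12047 genes tested.

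The RNA came from HL-1 cells, a line derived from a mouse atrial tumour driven by a viral oncogene, which keeps features of adult heart muscle cells in culture. Cells in both groups went through hypoxia for 6 h and reoxygenation for 1 h, and the comparison asks how a β3-adrenergic receptor agonist altered the RNA profile of such cells. There were 3 libraries with 5 µM BRL, the agonist, and 3 with vehicle. The sample descriptions name 7 h of reoxygenation, which was read as the total time. No group without hypoxia is part of the comparison, and nothing in the labels says whether replicates were separate cultures, so p-values measure only the spread between these libraries. In bulk RNA, fewer cells of a type and less RNA per cell cannot be told apart.

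Mitochondrial DNA is copied into RNA by a dedicated polymerase, Polrmt, as long transcripts that cover many genes of a strand at once. Transfer RNAs lie between most of the coding genes, and their excision releases the messenger RNAs, most of which then receive a short poly(A) tail. The encoded proteins are core subunits of respiratory complexes I, III and IV and of the ATP synthase, complex V, which heart muscle holds in large amounts. In the annotation used, 12 of the 13 messenger RNAs lay on the plus strand and mt-Nd6 on the minus strand.

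The sequences below, from GENCODE M21 transcripts of the GRCm38 build, show features that may bear on how counts divide among these genes. mt-Atp8 is 204 bases long, and its last 43 bases, in capitals, are also the first 43 bases of mt-Atp6, so a read inside that stretch fits both genes.

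mt-Atp8: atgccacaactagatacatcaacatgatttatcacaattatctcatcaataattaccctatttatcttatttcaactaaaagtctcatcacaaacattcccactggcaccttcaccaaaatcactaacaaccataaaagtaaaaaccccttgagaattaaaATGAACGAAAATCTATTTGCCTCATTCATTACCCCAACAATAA

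mt-Atp6 start: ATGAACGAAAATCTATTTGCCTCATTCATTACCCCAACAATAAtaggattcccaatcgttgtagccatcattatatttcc

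mt-Nd4l shares its last 7 bases, in capitals, with the start of mt-Nd4. Its first 294 bases were identical to the whole of Gm10222, a nuclear pseudogene annotated as 294 bases long.

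mt-Nd4l: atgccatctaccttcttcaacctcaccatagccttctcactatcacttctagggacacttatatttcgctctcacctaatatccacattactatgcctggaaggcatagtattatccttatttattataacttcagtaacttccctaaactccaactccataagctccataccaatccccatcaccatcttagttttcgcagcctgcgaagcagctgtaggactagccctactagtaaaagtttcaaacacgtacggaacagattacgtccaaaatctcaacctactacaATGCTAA

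mt-Nd5 and mt-Nd6 are read from opposite strands and meet at their 3′ ends. The last 14 bases of each, in capitals, are complementary to those of the other.

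mt-Nd5 end: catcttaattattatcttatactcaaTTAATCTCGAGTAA

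mt-Nd6 end: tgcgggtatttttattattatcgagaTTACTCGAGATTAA

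The transcripts of mt-Co3, mt-Nd4 and mt-Cytb end on a lone T, in capitals, after the last full codon. The poly(A) tail supplies the missing bases of the stop codon in such messages, and the other 10 messenger RNAs of the genome end on a full TAA or TAG.

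mt-Co3 end: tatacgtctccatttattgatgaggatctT

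mt-Nd4 end: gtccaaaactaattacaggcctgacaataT

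mt-Cytb end: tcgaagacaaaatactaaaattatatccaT

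The vehicle libraries held 4440168 to 5060049 expected counts and the BRL libraries 6812810 to 8332472, so depth and group cannot be told apart. BRL replicate 1 stood apart from the other 5 libraries, and values without it are given beside the group comparisons. The summed share of the 13 genes in library counts was 16.5%, 20.2% and 19.7% for vehicle and 5.03%, 21.9% and 20.0% for BRL, where values are given in the order of replicates 1, 2 and 3 here and throughout. BRL replicate 1 lay far below every other library, while BRL replicate 2 was the highest. On the per-length scale, as a share of transcripts, the same 13 genes made up 28.4%, 33.5% and 33.2% in vehicle and 10.4%, 34.1% and 32.1% in BRL. The groups overlapped on both scales. Means were 18.8% ± 1.97 of counts (SD, n = 3) in vehicle and 15.6% ± 9.24 (SD, n = 3) in BRL. An exact two-sided permutation test of the difference of −3.17 percentage points gave p = 0.9, where the smallest p that 3 against 3 libraries allow is 0.1. Without BRL replicate 1 the difference was 2.14 points (exact permutation p = 0.4, smallest possible 0.2).

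Other RNAs also stood apart in that library. Neat1, a nuclear-retained long noncoding RNA that scaffolds paraspeckles, had 311, 435 and 392 TMM-scaled CPM in vehicle and 47.0, 561 and 533 in BRL. Malat1, a noncoding RNA of nuclear speckles, had 447, 540 and 504 CPM in vehicle and 218, 495 and 530 in BRL. BRL replicate 1 was the lowest library for both. Neat1 differed by 0.0041 on the log2 scale with all 6 libraries (edgeR adjusted p = 0.998) and rose by 0.53 when BRL replicate 1 was left out (edgeR adjusted p = 0.00316). The median log2 level relative to the vehicle mean over 14 cardiomyocyte and atrial markers was −0.81 in BRL replicate 1, −0.063 in replicate 2 and −0.15 in replicate 3, and over 4 smooth muscle markers it was −1.20, −0.30 and −0.26. Over Hist1h1c and Hist1h2bc, the 2 tested of 15 listed as RNAs without a usual poly(A) tail, it was 0.41, 0.11 and 0.26. Over 20 genes of mitochondrial RNA processing and stability it was 0.36, 0.021 and 0.078. Other lists of mitochondrial upkeep shifted less in BRL replicate 1. Their medians there were 0.17 for transcription, −0.0046 for DNA replication, 0.14 for ribosomal and transfer RNA modification and 0.078 for translation factors. The part of these differences in the mitochondrial values was not tested.

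**Figure D1:**
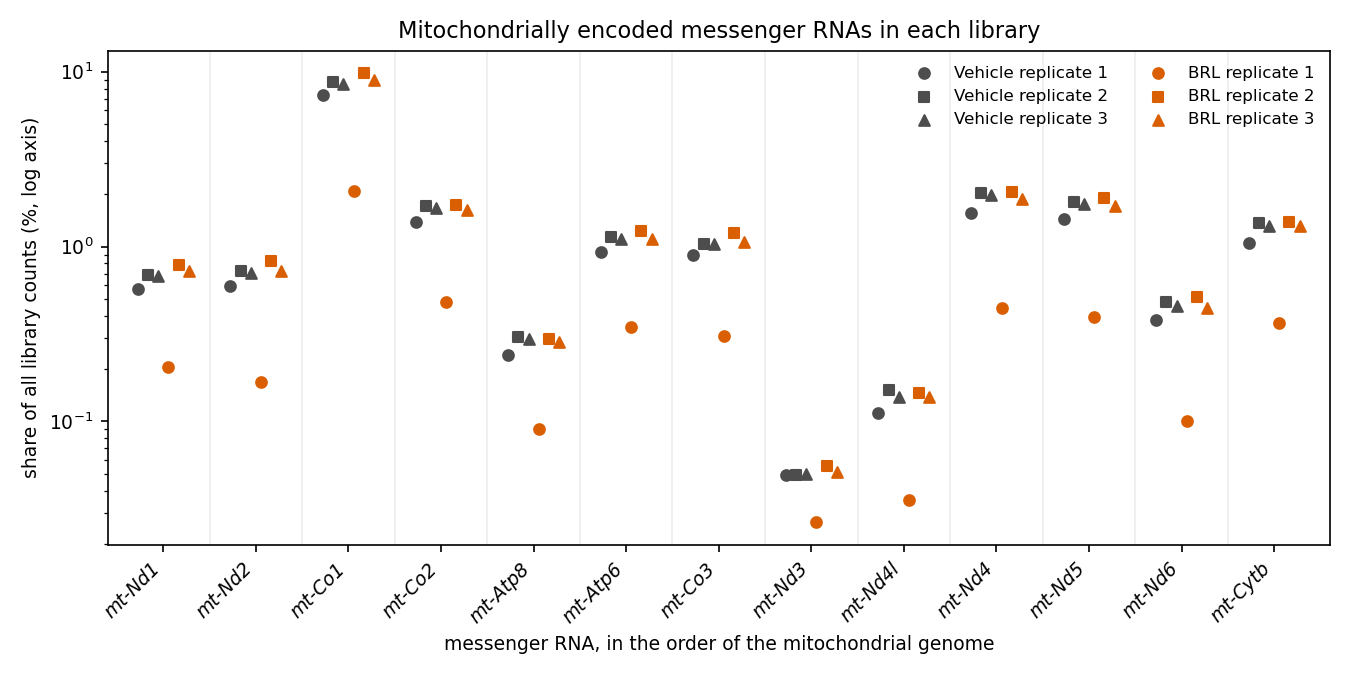
Share of all library counts (percent, log axis) of each mitochondrially encoded messenger RNA, in genome order, with 1 point per library (grey vehicle, orange BRL). In BRL replicate 1 all 13 lie below every other library, and the other 5 libraries lie close together.

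In BRL replicate 1 each of the 13 genes took a smaller share of library counts than in any vehicle library. The vehicle mean share exceeded that of BRL replicate 1 by 1.87 times for mt-Nd3 and by 3.07 times (mt-Atp6) to 4.40 times (mt-Nd6) for the other 12. For none of the 13 were all BRL libraries on one side of all vehicle libraries, against 29.9% of all tested genes that did not overlap in library share (16.7% above and 13.2% below). BRL replicates 2 and 3 both lay above every vehicle library for mt-Nd1, mt-Nd2, mt-Co1, mt-Co3 and mt-Nd3, which is 5 of 13, and below them for none. The background without BRL replicate 1 was 48.8% of tested genes without overlap, 21.3% above and 27.5% below. Wilson 95% intervals of these shares were at most 0.0501 percentage points wide and cover counting error only.

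Complex I, the NADH dehydrogenase, takes 7 of its subunits from the mitochondrial genome. mt-Nd1, a membrane subunit next to the ubiquinone site, took 0.569%, 0.685% and 0.675% of library counts in vehicle and 0.205%, 0.785% and 0.721% in BRL. mt-Nd2, an antiporter-like subunit of the proton-pumping arm, took 0.596%, 0.723% and 0.706% in vehicle and 0.169%, 0.831% and 0.725% in BRL. For both genes BRL replicate 1 was the lowest library and BRL replicates 2 and 3 were the highest. mt-Nd3, a small subunit at the junction of the arms, took 0.0492%, 0.0495% and 0.0501% in vehicle and 0.0265%, 0.0556% and 0.0511% in BRL. Its vehicle libraries lay closer together than those of any other member, and the drop in BRL replicate 1 was the smallest of the 13.

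mt-Nd4 and mt-Nd5 encode further antiporter-like subunits of complex I. mt-Nd4 took 1.56%, 2.03% and 1.97% of library counts in vehicle and 0.446%, 2.05% and 1.87% in BRL. mt-Nd5 took 1.43%, 1.81% and 1.76% in vehicle and 0.394%, 1.90% and 1.72% in BRL. Apart from BRL replicate 1, vehicle replicate 1 was the lowest library for both, and BRL replicate 3 lay inside the vehicle range. mt-Nd4l, a small membrane subunit, took 0.112%, 0.151% and 0.139% in vehicle and 0.0353%, 0.146% and 0.137% in BRL, with BRL replicates 2 and 3 inside the vehicle range. mt-Nd6, the membrane subunit encoded on the opposite strand, took 0.381%, 0.485% and 0.457% in vehicle and 0.1002%, 0.517% and 0.446% in BRL. It combined the largest drop in BRL replicate 1 with a value in BRL replicate 2 above every vehicle library.

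Complex III takes a single subunit from the mitochondrial genome, cytochrome b, which carries electrons between its ubiquinone sites. mt-Cytb took 1.04%, 1.36% and 1.31% of library counts in vehicle and 0.366%, 1.38% and 1.31% in BRL. BRL replicate 2 was the highest library and BRL replicate 3 lay within the vehicle range.

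Complex IV, cytochrome c oxidase, takes its catalytic core from the mitochondrial genome. mt-Co1, the subunit that holds the oxygen-reducing site, took 7.36%, 8.70% and 8.54% of library counts in vehicle and 2.07%, 9.80% and 8.94% in BRL. It was the most abundant member and made up 41.1% to 44.8% of all mitochondrially encoded counts in every library. mt-Co2, which receives electrons from cytochrome c, took 1.38%, 1.70% and 1.67% in vehicle and 0.479%, 1.73% and 1.61% in BRL. mt-Co3, a subunit without a redox centre, took 0.899%, 1.034% and 1.032% in vehicle and 0.308%, 1.19% and 1.06% in BRL. BRL replicates 2 and 3 were the highest libraries for mt-Co1 and mt-Co3, while for mt-Co2 BRL replicate 3 fell inside the vehicle range.

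Complex V takes 2 subunits of its membrane part from the mitochondrial genome. mt-Atp6, which lines the proton path, took 0.928%, 1.129% and 1.111% of library counts in vehicle and 0.344%, 1.220% and 1.110% in BRL. mt-Atp8, a short accessory subunit, took 0.238%, 0.302% and 0.295% in vehicle and 0.0900%, 0.297% and 0.285% in BRL. For mt-Atp8 BRL replicates 2 and 3 lay within the vehicle range, and for mt-Atp6 BRL replicate 2 lay above it.

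None of the 13 was called in the edgeR quasi-likelihood test with Benjamini-Hochberg adjustment over all genes (adjusted p of 0.709 to 0.866). That test called 2.81% of genes, of which 122 rose and 216 fell. None of the 13 had an unadjusted p under 0.05, against 22.4% of all tested genes, and 0 of the 13 were called by DESeq2 (4.99% of all genes), limma on the RSEM fraction (0.498%) or limma on the authors' deposited log2 values (2.21%). The log2 fold changes ran from −0.34 for mt-Nd4 to −0.16 for mt-Nd3, with a median of −0.27 beside 0.0051 over all tested genes. For mt-Co1 the log2 fold change was −0.23 ± 0.53 (SE, 95% interval −1.44 to 0.99, n = 3 and 3, edgeR adjusted p = 0.839), and for mt-Nd3 it was −0.16 ± 0.28 (95% interval −0.80 to 0.47, edgeR adjusted p = 0.771). The intervals of all 13 included 0 and, between them, reached from −1.50 to 0.99.

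Without BRL replicate 1 the sign of all 13 turned, and their log2 fold changes ran from 0.10 for mt-Atp8 to 0.27 for mt-Nd1 (median 0.16). edgeR then called 21.2% of all tested genes and none of the 13, with adjusted p of 0.0895 to 0.540. Unadjusted p was under 0.05 for 2 of them, mt-Nd1 (0.27 ± 0.11, SE, edgeR unadjusted p = 0.0250) and mt-Nd2 (0.24 ± 0.11, edgeR unadjusted p = 0.0456), against 35.2% of all tested genes. Over all alternatives tried the adjusted p of the 13 ranged from 0.0895 to 0.948.

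**Figure D2:**
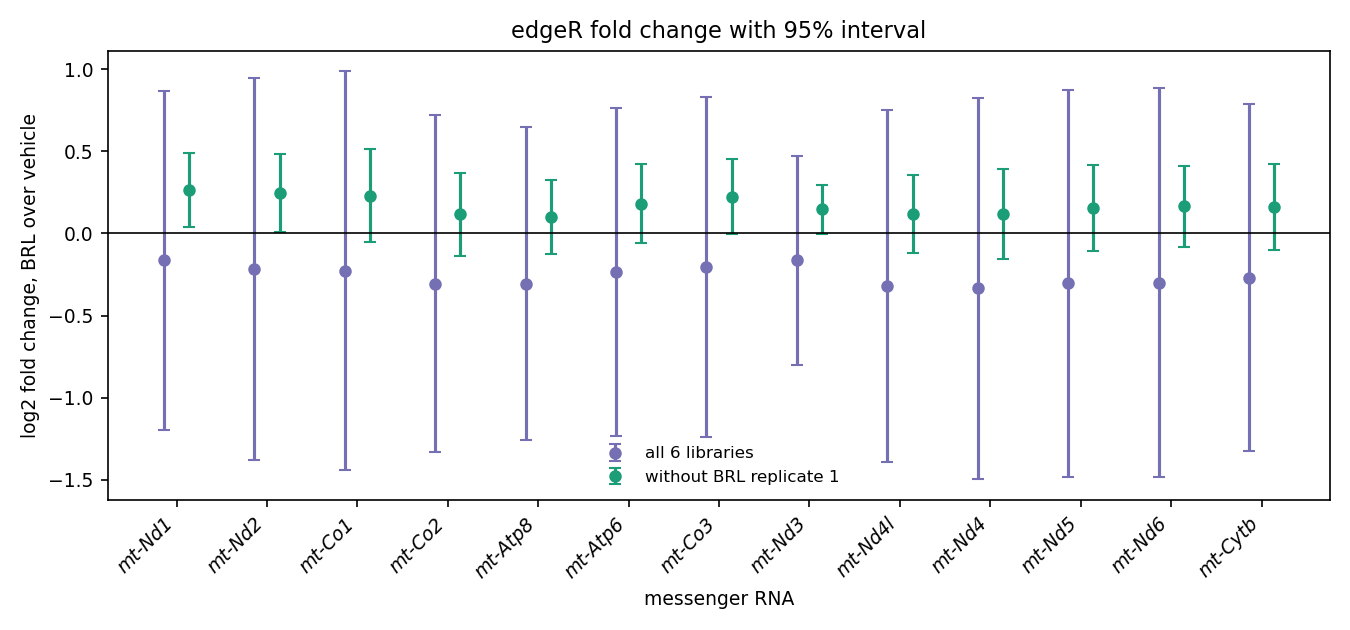
edgeR log2 fold change, BRL over vehicle, of each messenger RNA with its 95% interval, with all 6 libraries (purple) and without BRL replicate 1 (green). All 13 estimates are negative with 6 libraries and positive without BRL replicate 1, when the intervals of mt-Nd1 and mt-Nd2 lie above 0.

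The make-up of the mitochondrially encoded RNA was described next, as each gene's share of the summed counts of the 13, a quantity that a change in the total alone does not move. mt-Nd1 made up 3.44%, 3.40% and 3.43% in vehicle and 4.08%, 3.58% and 3.61% in BRL, so that all BRL libraries lay above all vehicle libraries. mt-Nd4 made up 9.44%, 10.1% and 9.99% in vehicle and 8.86%, 9.34% and 9.38% in BRL, all below the vehicle libraries. The groups overlapped for the other 11. Scaled to the same mitochondrial total, 5.37% of all tested genes did not overlap between groups, 4.6% with every BRL library above every vehicle library and 0.772% with each below. For genes outside the 13 this scaling brings in the low mitochondrial total of BRL replicate 1, which the shares of the 13 do not carry. These percentages are therefore not a like background for the 13.

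mt-Nd3 departed most in BRL replicate 1. It made up 0.297%, 0.245% and 0.254% of mitochondrially encoded counts in vehicle and 0.526%, 0.254% and 0.256% in BRL, which put BRL replicate 1 at 1.98 times the vehicle mean. mt-Atp6 and mt-Atp8 stood at 1.22 and 1.21 times the vehicle mean share in that library, mt-Nd1 at 1.19, mt-Co3 at 1.16, mt-Co2 at 1.13 and mt-Cytb at 1.11. mt-Nd5 and mt-Nd6 stood at 0.885 and 0.850 times. In BRL replicates 2 and 3 no gene left the range from 0.917 to 1.057 times the vehicle mean share. Across the 13 genes the log2 shift of the share in BRL replicate 1 had a Pearson r of −0.51 and a Spearman rho of −0.52 with transcript length, and −0.33 and −0.12 with GC content. These describe 13 genes of the same libraries, which share strand, processing and depth.

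Without BRL replicate 1, 3 of 13 shares lay above every vehicle library (mt-Nd1, mt-Nd2 and mt-Co1) and 4 lay below (mt-Co2, mt-Atp8, mt-Atp6 and mt-Nd4). The background on that scale was 39.4% of tested genes without overlap, 4.64% above and 34.7% below. Genes outside the 13 also move with the mitochondrial total on that scale, so it is not a like background for the 13. On library share 21.3% lay above and 27.5% below. mt-Co2 made up 8.34%, 8.45% and 8.47% of mitochondrially encoded counts in vehicle and 7.90% and 8.07% in BRL replicates 2 and 3. mt-Co1 made up 44.5%, 43.2% and 43.3% in vehicle and 44.8% and 44.7% in those BRL libraries. The distances between these libraries were small beside that of BRL replicate 1, where the same gene made up 41.1% and mt-Co2 9.53%.

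The make-up differed between libraries by more than counting error in each pair, vehicle pairs included. The chi-square statistic per degree of freedom over the 13 counts (12 degrees of freedom) was 5.34 between vehicle replicates 2 and 3 and 59.2 and 38.1 between vehicle replicate 1 and those. It was 27.1 between BRL replicates 2 and 3, and 277 to 427 between BRL replicate 1 and each other library. The statistic grows with the number of counts, and BRL replicates 2 and 3 held more mitochondrially encoded counts than any vehicle library.

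**Figure D3:**
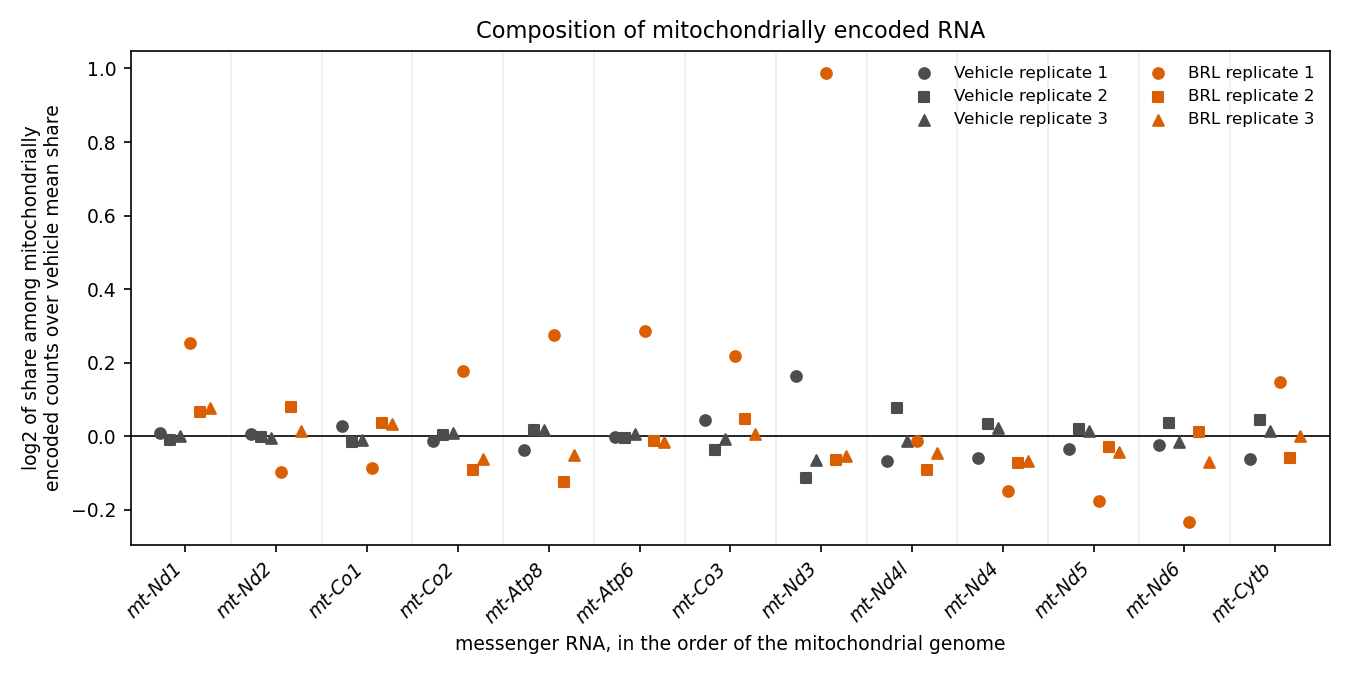
log2 of each gene's share among mitochondrially encoded counts over its vehicle mean share, in genome order, with 1 point per library. BRL replicate 1 departs furthest for every gene except mt-Nd4l, with mt-Nd3 at 0.99 on the log2 scale, while BRL replicates 2 and 3 stay within 0.13 of the vehicle mean.

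mt-Nd6 is the messenger RNA from the opposite strand, and its share was compared on its own. It made up 2.30%, 2.40% and 2.32% of mitochondrially encoded counts in vehicle and 1.99%, 2.36% and 2.23% in BRL. The groups overlapped through BRL replicate 2. The difference of mean log2 shares was −0.097 (exact two-sided permutation p = 0.3, smallest possible 0.1), and −0.029 without BRL replicate 1 (exact permutation p = 0.6). The ratio of mt-Nd6 to mt-Nd5 counts, its neighbour on the other strand, was 0.267, 0.268 and 0.260 in vehicle and 0.254, 0.272 and 0.260 in BRL. Since no source used here states whether counting used strand, reads of mt-Nd6 and of RNA antisense to it cannot be told apart.

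Levels of different genes were compared per length, in TPM, the RSEM fraction on its usual scale of transcripts. In vehicle the order of means ran from mt-Co1 at 85193 ± 6028 TPM (SD, n = 3) to mt-Nd3 at 2943 ± 54.1 TPM. mt-Co2 (40167 TPM) and mt-Atp8 (38961 TPM) followed mt-Co1, and their vehicle ranges overlapped. Then came mt-Atp6 at 26916 TPM, clear of both neighbours in its vehicle range. mt-Atp8 is carried on the same RNA, yet its per-length value was 1.33 to 1.47 times that of mt-Atp6 over the 6 libraries. The per-length order is therefore not an exact order of RNA levels. mt-Nd4 (21702 TPM) and mt-Co3 (21453 TPM) overlapped, and stood in that order in 2 of 6 libraries. mt-Cytb (17688 TPM), mt-Nd6 (15518 TPM) and mt-Nd5 (14544 TPM) each overlapped with the next in vehicle but kept the same order in all 6 libraries, as did mt-Nd1 (11180 TPM), mt-Nd2 (10729 TPM) and mt-Nd4l (9978 TPM).

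The order was similar in BRL, also in the library with the low total. mt-Co1, mt-Atp6, mt-Nd2, mt-Nd4l and mt-Nd3 held the same rank in all 6 libraries (1, 4, 11, 12 and 13), and no gene moved by more than 2 ranks. These ranks use mt-Nd4l without its nuclear copy Gm10222, described below. With the copy added, mt-Nd4l had 17129, 22113 and 20624 TPM in vehicle and 6128, 20378 and 19728 TPM in BRL and stood at rank 6 or 7, while mt-Nd2 stood at 12 and mt-Nd4 ranged from 5 to 8. In TPM, mt-Co1 had 78237, 88879 and 88464 in vehicle and 25092, 95621 and 89404 in BRL, while mt-Nd3 had 2986, 2882 and 2959 in vehicle and 1823, 3090 and 2915 in BRL. BRL replicate 1 was lowest at both ends of the order.

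**Figure D4:**
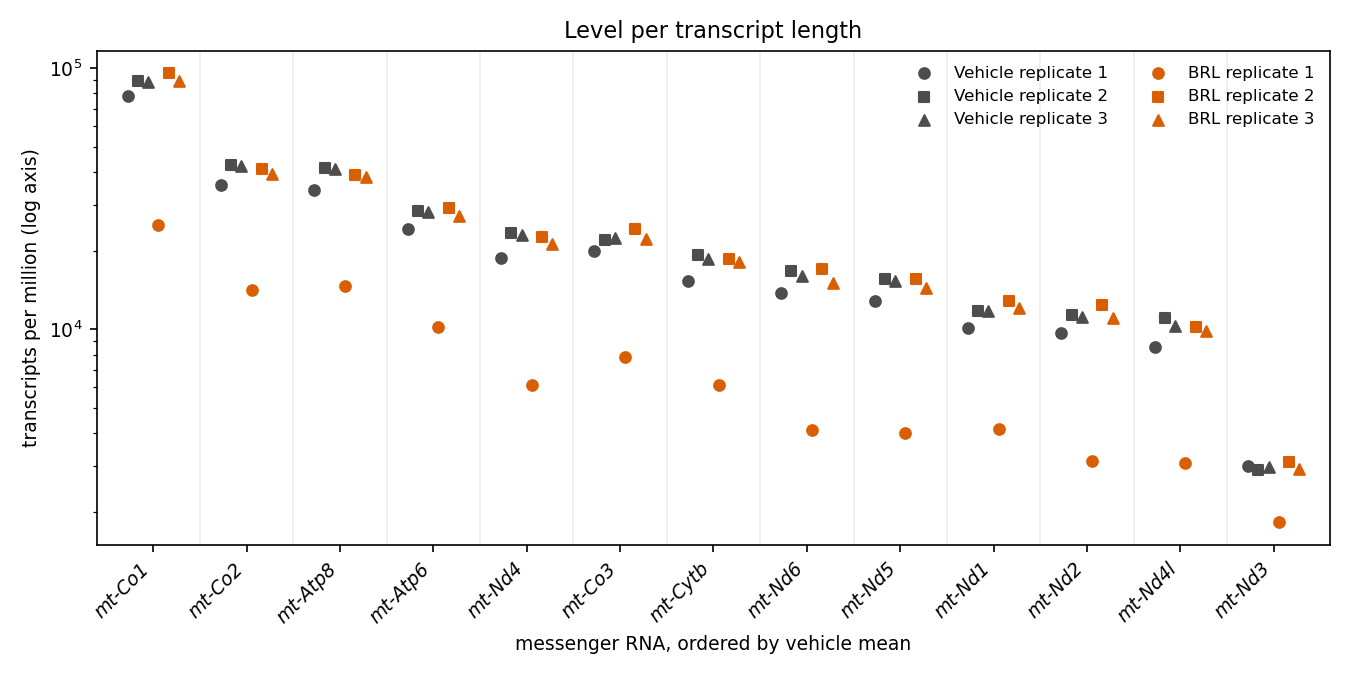
Level per length (TPM, log axis) of each messenger RNA, ordered by the vehicle mean, with 1 point per library and mt-Nd4l without its nuclear copy. mt-Co1 is the highest and mt-Nd3 the lowest in all 6 libraries, and BRL replicate 1 lies below the other libraries at every gene.

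Genes that share a messenger RNA were compared with each other. mt-Atp8 and mt-Atp6 are translated from the same RNA, and the per-length ratio of mt-Atp8 to mt-Atp6 was 1.41, 1.47 and 1.46 in vehicle and 1.43, 1.33 and 1.41 in BRL. mt-Nd4l and mt-Nd4 also share an RNA, and the per-length ratio of mt-Nd4l to mt-Nd4 was 0.457, 0.473 and 0.448 in vehicle and 0.502, 0.453 and 0.466 in BRL. Both ratios differed little between libraries, although the share of the same genes in BRL replicate 1 was far lower.

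The mt-Nd4l level is uncertain because of its nuclear copy. Gm10222 had the same expected count as mt-Nd4l in every library, 4971.5, 7345 and 7009.5 in vehicle and 2407, 10953 and 11449.5 in BRL, an equal division between the identical sequences. With the copy added, the per-length ratio to mt-Nd4 was 0.915, 0.946 and 0.896 in vehicle and 1.004, 0.905 and 0.932 in BRL. As for mt-Nd4l alone, the fold change of the sum did not pass the edgeR test. The reference held 17 nuclear copies, of which 8 were in the deposited tables, and those other than Gm10222 took few counts. Counts of copies outside the deposited tables are not known. Gm13340, 97.6% identical to mt-Co1, had a mean of 10.6 counts per library, Gm13341, 95.9% identical to mt-Co2, had 2.76, and Gm11407, which matches part of mt-Nd5, had 0.715. Expected counts were whole within 0.005 in every library for 7 of the 13 and not whole in at least 1 library for mt-Co1, mt-Co2, mt-Atp8, mt-Atp6, mt-Nd4l and mt-Nd5.

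Nuclear genes that maintain, transcribe, process and translate mitochondrial RNA were read from 5 lists, of which 79 genes were tested. In the edgeR test over all genes 2 of them rose and none fell, against a background of 1.01% of genes that rose and 1.79% that fell. Their median log2 fold change was 0.12, beside 0.0051 over all genes. Without BRL replicate 1, 5 rose and 4 fell, against 10.3% and 10.9% of all genes. Mrpl12, a mitochondrial ribosomal protein that has also been reported to bind the mitochondrial RNA polymerase, had 54.9, 51.2 and 52.7 CPM in vehicle and 85.0, 81.9 and 77.5 CPM in BRL. The groups did not overlap, as for 31.5% of tested genes on the CPM scale, and Mrpl12 rose by 0.62 ± 0.094 (log2, SE, edgeR adjusted p = 0.0137), and by 0.59 without BRL replicate 1 (edgeR adjusted p = 0.000276). The call was lost when each vehicle library in turn was left out (edgeR adjusted p = 0.0799, 0.121 and 0.120 without replicates 1, 2 and 3) or with limma on the RSEM fraction (adjusted p = 0.174), and its counts were not whole.

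Among the other factors of mitochondrial transcription none of the 10 tested passed, with or without BRL replicate 1. Polrmt, the RNA polymerase, had 13.7, 10.9 and 10.9 CPM in vehicle and 16.5, 18.6 and 12.6 CPM in BRL (log2 fold change 0.42 ± 0.19, edgeR adjusted p = 0.239, and 0.39 with adjusted p = 0.165 when BRL replicate 1 was left out). Tfam, which packages and bends mitochondrial DNA at promoters, had 60.1, 61.9 and 60.8 CPM in vehicle and 82.6, 57.3 and 62.3 CPM in BRL (0.15 ± 0.14, edgeR adjusted p = 0.588, and −0.020 with adjusted p = 0.888 without BRL replicate 1). Tfam was highest in BRL replicate 1, the library with the lowest mitochondrial share, and BRL replicates 2 and 3 lay on either side of the vehicle range. Tfb2m, which helps Polrmt open the promoter, differed by −0.080 ± 0.14 (edgeR adjusted p = 0.777), and Tefm, an elongation factor, by 0.26 ± 0.20 (edgeR adjusted p = 0.487).

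Of 16 genes of mitochondrial DNA replication none passed with all 6 libraries. Primpol, a primase and polymerase, had the smallest p, with 26.2, 32.7 and 26.4 CPM in vehicle and 18.1, 20.1 and 22.5 CPM in BRL (log2 fold change −0.49 ± 0.14, edgeR adjusted p = 0.101). When BRL replicate 1 was left out, Primpol fell by 0.41 on the log2 scale (edgeR adjusted p = 0.0375), and Polg, the catalytic subunit of the mitochondrial DNA polymerase, rose by 0.30 (edgeR adjusted p = 0.0277). None of 20 genes of RNA processing and stability passed with all 6 libraries either. Tbrg4, which takes part in the maturation of mitochondrial messenger RNA, had 49.6, 54.3 and 49.3 CPM in vehicle and 76.8, 65.0 and 60.6 CPM in BRL (0.40 ± 0.12, edgeR adjusted p = 0.102), and without BRL replicate 1 it rose by 0.30 (edgeR adjusted p = 0.0243). Lrpprc, which stabilises mitochondrial messenger RNAs, had 88.3, 88.1 and 92.6 CPM in vehicle and 115, 78.0 and 73.4 CPM in BRL. Its BRL replicate 1 was the highest library and BRL replicates 2 and 3 were the lowest, and without BRL replicate 1 it fell by 0.24 on the log2 scale (edgeR adjusted p = 0.0421). Slirp, the partner of Lrpprc, had 21.7, 21.8 and 23.9 CPM in vehicle and 15.1, 21.4 and 23.9 CPM in BRL (−0.16 ± 0.18, edgeR adjusted p = 0.645), with BRL replicate 1 the lowest library.

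None of 20 genes of ribosomal and transfer RNA modification passed with all 6 libraries, and Yrdc, an enzyme of transfer RNA modification, had the smallest p (0.48 ± 0.12, edgeR adjusted p = 0.0694). Yrdc rose by 0.39 when BRL replicate 1 was left out (edgeR adjusted p = 0.00760) and Osgepl1, also an enzyme of transfer RNA modification, fell by 0.40 (edgeR adjusted p = 0.0152). Of 12 translation factors 1 rose with all 6 libraries, Tufm, the elongation factor that brings aminoacyl transfer RNA to the mitochondrial ribosome. It had 72.6, 69.2 and 75.8 CPM in vehicle and 102, 103 and 93.8 CPM in BRL (0.46 ± 0.094, edgeR adjusted p = 0.0455). The groups did not overlap for Tufm, as for 31.5% of tested genes on the CPM scale. Leaving out any library except BRL replicate 1 ended the call (edgeR adjusted p = 0.0703 to 0.230), as did scaling by library totals alone (0.0916), the replicate block (0.0920) and limma on the RSEM fraction (0.333). In the 5 libraries other than BRL replicate 1, Tufm rose by 0.44 (edgeR adjusted p = 0.00220) and Guf1, an elongation factor that binds the mitochondrial ribosome, fell by 0.48 (edgeR adjusted p = 0.00636).

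The nuclear genome encodes the remaining subunits of the same complexes. None of 74 tested passed the edgeR test over all genes. An unadjusted p was under 0.05 for 24 of them, against 22.4% of all tested genes, DESeq2 called 3, against 4.99%, and their median log2 fold change was 0.16. Without BRL replicate 1, 35 of 74 rose and none fell, with a median of 0.26, against 10.3% of all tested genes that rose. They were 16 of 36 subunits of complex I, 6 of 9 of complex III, 8 of 14 of complex IV and 5 of 15 of complex V. Cyc1, cytochrome c1 of complex III, had 94.6, 90.8 and 86.3 CPM in vehicle and 126, 117 and 120 CPM in BRL (0.42 ± 0.092, edgeR adjusted p = 0.0529, and 0.39 with adjusted p = 0.00266 without BRL replicate 1). Atp5j2, subunit f of complex V, had 128, 124 and 126 CPM in vehicle and 156, 169 and 167 CPM in BRL (0.38 ± 0.089, edgeR adjusted p = 0.0614, and 0.42 with adjusted p = 0.000784 without BRL replicate 1). Neither overlapped between groups, as for 31.5% of all tested genes on the CPM scale, and both were in BRL replicate 1 nearer to the other BRL libraries than to vehicle. Ndufs8, an iron-sulfur subunit of complex I, differed by 0.50 ± 0.12 (edgeR adjusted p = 0.0644) and Cox4i1, the largest nuclear subunit of complex IV, by 0.34 ± 0.097 (edgeR adjusted p = 0.0973). Both rose when BRL replicate 1 was left out, by 0.55 (edgeR adjusted p = 0.00313) and 0.32 (edgeR adjusted p = 0.00695).

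**Figure D5:**
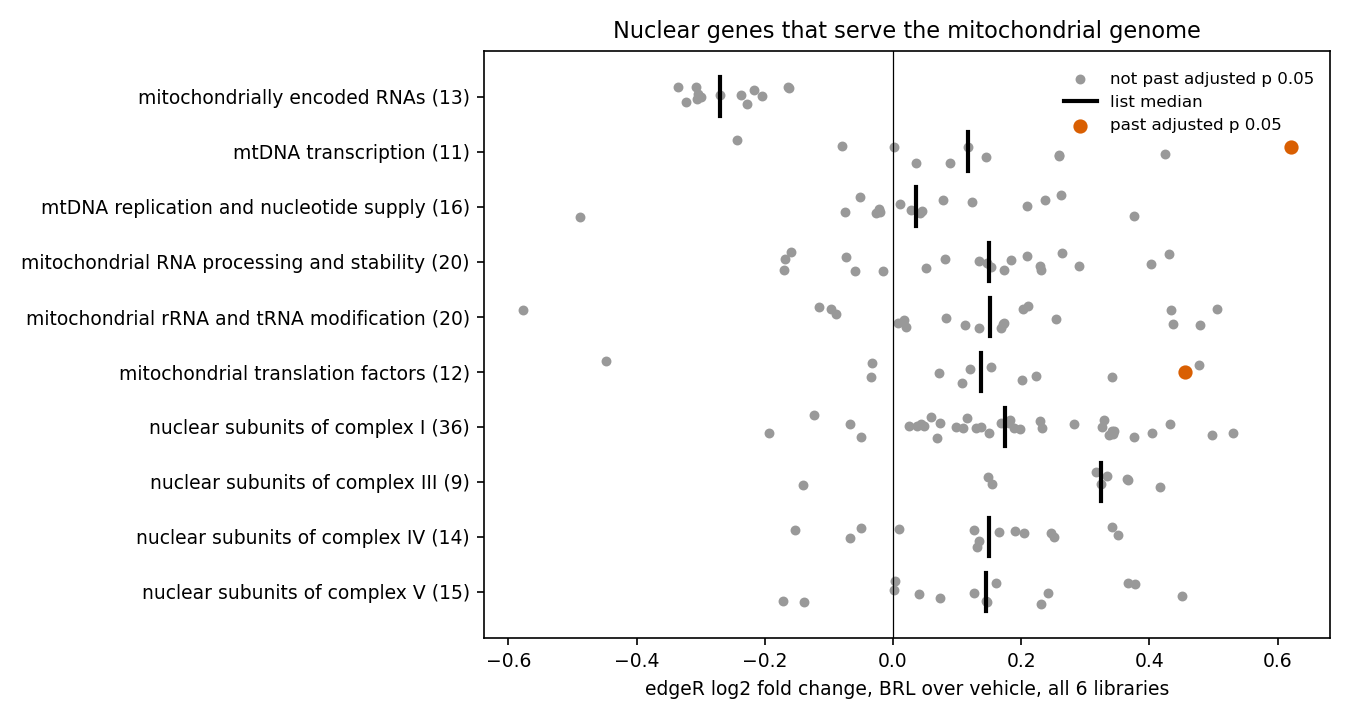
edgeR log2 fold change, BRL over vehicle with all 6 libraries, of each tested gene in the named lists, with the list median as a black bar and genes past adjusted p 0.05 in orange. The 13 mitochondrially encoded RNAs all lie below 0, with a median of −0.27, and the medians of the 9 nuclear lists all lie above 0.

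The balance of mitochondrial and nuclear subunits was described for each complex as the ratio of the mean TPM per mitochondrial gene to the mean TPM per nuclear gene. For complex I it was 66.9, 83.1 and 81.9 in vehicle and 18.4, 78.0 and 71.7 in BRL. For complex IV it was 76.8, 96.9 and 96.2 in vehicle and 23.1, 91.2 and 83.6 in BRL. In both complexes BRL replicate 1 was the lowest library, and BRL replicates 2 and 3 lay inside the vehicle range. Complex III gave 61.7, 83.7 and 80.4 in vehicle and 17.8, 72.5 and 66.4 in BRL, and complex V gave 55.9, 70.9 and 69.6 in vehicle and 17.9, 66.1 and 61.1 in BRL, with the same pattern. Nuclear subunits of complex I took 0.342%, 0.354% and 0.347% of non-mitochondrial counts in vehicle and 0.341%, 0.398% and 0.389% in BRL. Those of complex IV took 0.281%, 0.278% and 0.275% in vehicle and 0.260%, 0.336% and 0.325% in BRL. In both complexes BRL replicate 1 lay below every vehicle library while BRL replicates 2 and 3 lay above. The nuclear subunits of complex III took 0.143%, 0.148% and 0.151% in BRL, beside 0.126% to 0.129% in vehicle. Those of complex V took 0.615%, 0.638% and 0.630% in BRL, beside 0.567% to 0.576% in vehicle. For both complexes all BRL libraries lay above the vehicle range. Among single tested genes, 29.9% did not overlap between groups in library share and 31.5% on the CPM scale. No background was computed for summed lists as a share of non-mitochondrial counts.

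The label of the cells was checked against markers. The summed CPM of non-mitochondrial counts over cardiomyocyte and atrial markers was 9444 to 10490 in vehicle and 5127 to 7524 in BRL, where Myh6 alone had a mean of 3336 TMM-scaled CPM in vehicle and 1329 in BRL. Of 14 tested, 2 fell and none rose, against 1.79% and 1.01% of all tested genes. They were Pln, a regulator of the calcium pump (−1.52 ± 0.13, edgeR adjusted p = 0.00183), and Myh6, the α myosin heavy chain (−1.33 ± 0.19, edgeR adjusted p = 0.0117). The call of Myh6 was lost when each vehicle library in turn was left out (edgeR adjusted p of 0.0541 to 0.0933). Without BRL replicate 1, 6 of 14 fell (Myh6, Pln, Actc1, Myl4, Nppb and Ryr2) and 4 rose (Nkx2-5, Gata4, Gja5 and Tnni3), against 10.9% and 10.3% of all tested genes. Smooth muscle markers summed to 3684 to 4233 CPM in vehicle and 1482 to 3245 in BRL, and none of 4 tested passed with all 6 libraries, while 3 fell without BRL replicate 1, against 10.9% of all tested genes. Fibroblast markers stayed between 3.86 and 7.38 CPM, endothelial markers between 3.24 and 7.74 and leukocyte markers between 2.63 and 6.00 in all libraries, and Dcn, Lum, Thy1, Emcn, Ptprc and Csf1r were at 0.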

How the data were processed

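RNA-seq of HL-1 cells was available for 3 vehicle and 3 BRL libraries. They were made with the Illumina TruSeq RNA kit, version 2, with total RNA as the input, per the labels' protocols. Shares are of counts in these libraries and not of the RNA in the cells. The authors deposited RSEM expected counts per gene and an RSEM fraction per gene that sums to 1, and a table of log2 values per library. The submitters' processing notes name cutadapt, Bowtie, RSEM 1.17, edgeR and the build NCBIM37; the sources used here state neither settings nor strand. Expected counts split reads that fit several genes, which affects mt-Nd4l with its identical copy and can affect members with overlaps. Groups and replicate numbers came from sample titles, and the vehicle dose of 0 was assigned here.

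Symbols were matched by gene identifier (88.4% of genes). Reference transcripts (GENCODE M21) served for symbols, lengths, strand and sequences only, and nuclear copies were sought with BLAST 2.17.0 (at least 90% identity over 100 bases). Rounded expected counts entered a quasi-likelihood F-test (edgeR 4.0.16, R 4.3.3) with group as its term, TMM factors and the filterByExpr minimum of 10 counts, with Benjamini-Hochberg adjustment over 12047 genes and a threshold of 0.05. Single values were tested by exact two-sided permutation (2 tests, no adjustment). Alternatives were DESeq2 1.42.0, limma 3.58.1 on log2(TPM + 1) from the deposited fraction, other scalings, no filter, a replicate block and leaving out each library; limma on the authors' deposited log2 values and mt-Nd4l summed with its copy were added after seeing the data. The scripts were tested on simulated data. A count floor of 3 corresponds to 0.360 to 0.676 CPM, and intervals are Wilson 95% intervals.

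The genes named are all mt- genes, list members past the test, and otherwise the list member of smallest p. Polrmt, Tfam, Tfb2m, Tefm, Lrpprc and Slirp were named for their known roles. Neat1, Hist1h2bc, Polg, Osgepl1, Guf1 and the cardiomyocyte markers other than Pln and Myh6 were named after their values were seen. The members and the 16 lists were chosen with earlier results of these data known. Class comparisons with ribosomal and transfer RNAs were planned and are not analysed here.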

Additional observations from a re-analysis of the deposited data

How the results depend on the processing

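BRL replicate 1 decided the sign of the mitochondrial share and of the 13 fold changes. Leaving out each library in turn, the difference in mitochondrial share ran from −6.30 to 2.14 percentage points and turned only without BRL replicate 1 (2.14). So did the log2 fold changes of all 13 genes, which without it were 0.27 (mt-Nd1), 0.24 (mt-Nd2), 0.23 (mt-Co1), 0.12 (mt-Co2), 0.10 (mt-Atp8), 0.18 (mt-Atp6), 0.22 (mt-Co3), 0.15 (mt-Nd3), 0.12 (mt-Nd4l), 0.12 (mt-Nd4), 0.16 (mt-Nd5), 0.17 (mt-Nd6) and 0.16 (mt-Cytb). Their lowest values were −0.51, −0.62, −0.60, −0.63, −0.60, −0.57, −0.57, −0.40, −0.66, −0.70, −0.69, −0.72 and −0.59 in the same order. Under every other alternative the 13 stayed negative and none was called. Genes that rose numbered 122 in the main test, 246 with DESeq2, 77 with library totals alone, 282 without a filter, 63 with the replicate block, 30 with limma on the fraction and 17 to 1240 leaving out a library (1240 without BRL replicate 1). Genes that fell numbered 216, 355 with DESeq2, 330 without a filter, 30 with limma on the fraction, 150 with the replicate block and 15 to 1315 leaving out a library. Deviations from the group means correlated at 0.102, −0.021 and −0.0176 between same-numbered libraries, and at −0.113 to 0.133 between the others. With 3 libraries per group this cannot decide whether the replicate numbers pair cultures. Under the replicate block the median of the 13 was −0.53 with none called. The log2 fold change of Malat1, −0.26 with all libraries, ran from −0.48 to 0.051 (positive only without BRL replicate 1), that of Cd68, 0.079, from −0.16 to 0.39 (negative when vehicle replicate 1 or either of BRL replicates 2 and 3 was left out, and −0.036 with limma on the authors' deposited log2 values), and that of Col1a1, −0.43, was 0.53 with limma on the fraction. The causes were not tested. Class ratios with ribosomal or transfer RNA were not run. With all 6 libraries the 95% intervals of the 13 genes allow log2 changes from −1.50 to 0.99.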
